A study of Mus musculus with 4 samples.

Results

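Intraepithelial lymphocytes (IEL) taken from the colon of recolonized mice were compared with IEL taken from the small intestine of unmanipulated mice. The comparison is the log2 level on the array titled Recolonized minus the log2 level on the array titled SI_IEL, gene by gene. It uses 2 of the 4 arrays of the series and all 22180 genes that had a probe set with a single gene symbol. Counts cover the 12379 genes that reached the level floor, meaning that on whichever of both arrays was brighter they lay at or above the median gene level of that array. A gene can thus pass through its brighter array alone. The other 2 arrays, colon IEL of unmanipulated mice and an array labelled lamina propria T cells, are shown beside them. Every array is a single pool, so no difference has a replicate check, no test was possible and no error is given.

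All mice were C57Bl/6 animals 8 to 10 weeks old, and 10 mice (5 male, 5 female) were pooled. The labels speak of 10 mice in total and also of 10 for each sample, so whether arrays shared mice is not known. For 7 days the recolonized mice drank water with ampicillin and neomycin at 0.01% each and vancomycin and metronidazole at 0.05% each, flavoured with a drink powder, and were then exposed to the bacteria of untreated littermates for 7 days. This exposure is described both as shared housing and as soiled bedding. The small intestinal IEL came from mice that received neither. T cells were enriched from the epithelial fraction of both tissues by magnetic negative selection, with an antibody against EpCAM, an epithelial surface protein, added to the mix. The design text, rather than a tissue label, names the recolonized sample as colon IEL. No array came from small intestine after recolonization or from mice given antibiotics alone, so gut region and treatment cannot be told apart.

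IEL are T cells of the gut lining that sit among its epithelial cells and are held there partly by the integrin CD103, which binds E-cadherin. Natural IEL, which include gamma delta T cells and cells with the CD8 alpha homodimer, carry innate-like receptors and cytotoxic granules and are most abundant in the small intestine. Induced IEL are conventional CD4 or CD8 alpha beta T cells that have entered the epithelium after meeting antigen, and they make up more of the colon population. Small intestinal epithelium is built around digestion and lipid uptake and has Paneth cells at the crypt base, whereas colon epithelium absorbs salt and water beneath a thick mucus layer.

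Levels are given throughout in log2 units in the order recolonized colon IEL, small intestinal IEL, unmanipulated colon IEL and labelled lamina propria. Cd3e, the CD3 epsilon chain, was at 9.43, 9.49, 9.17 and 3.72. The gamma chain Cd3g was at 8.77, 9.25, 8.03 and 2.61, and the delta chain Cd3d at 6.54, 5.54, 5.64 and 2.41. The 3 chains were thus bright on each IEL array, though not in 1 ratio, and far dimmer on the array labelled lamina propria. That array instead was bright for epithelial genes, such as Epcam at 9.20, and is used below only as a guide to genes of the epithelium. The median gene level was 2.39 on the recolonized array and 2.24 on the small intestinal array, and 677 and 1377 genes reached a level of 6 on them. Red cell genes had median levels of 3.68 and 3.86 on these arrays but 8.05 on the unmanipulated colon array. The 3 measured Y-linked genes, Eif2s3y, Uty and Kdm5d, were at 1.95, 1.86 and 1.67 on the recolonized array against 4.67, 3.56 and 2.98 on the small intestinal array, while Xist was at 5.94 against 5.70. On the unmanipulated colon and labelled lamina propria arrays the Y-linked median was 2.20 and 4.85, and Xist was at 4.085 and 1.86. The sex-linked levels thus varied over all the arrays. The Y-linked levels go against an even mix of sexes on the recolonized array. On the unmanipulated colon array the Y-linked median also lay under the median gene level, which was 2.41. On the labelled lamina propria array Xist lay under the median gene level of 2.18, so the doubt is not particular to the recolonized array. The part of sex in the results was not tested.

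At a threshold of 2-fold, 589 of the 12379 genes above the floor (4.76%) were higher on the recolonized colon array and 2219 (17.9%) were lower, with a median difference of −0.20. These shares are to be set beside every list count below for the values as deposited. The higher genes with the largest differences were genes of colon epithelium (Car1, Mptx1, Tgm3, Retnlb, Car4), of the T cell (Lef1) and of connective tissue (Dpt, Nid1), together with the complement inhibitor Serping1 and Btbd35f1. The lower genes with the largest differences were digestive enzymes and lipid carriers (Sis, Alpi, Akp3, Fabp1, Apoa4), Paneth cell proteins (Defa21, Defa24, Defa39, Lyz1) and the lectin Reg1. Differences of at least 8-fold were counted for 15 higher and 259 lower genes. The share of higher genes among those at least 2-fold apart was 21%, but quantile normalization put it at 45.2%, centring of the differences at 38% and a lowess correction at 37.7%. Centring moved every difference up by 0.20, and quantile normalization brought the median of genes above the floor to 0.06.

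**Figure D1:**
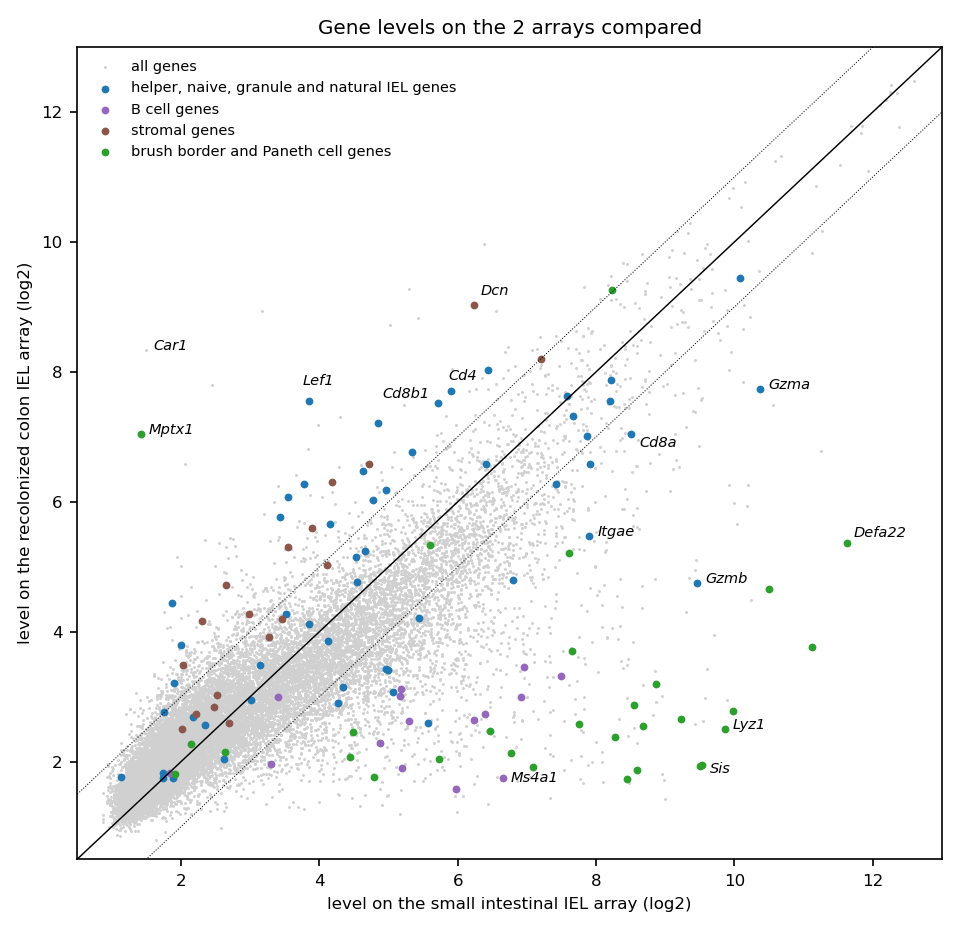
Log2 level of each of the 22180 genes on the small intestinal IEL array (x axis) and on the recolonized colon IEL array (y axis), with the line of equal levels and dotted lines at a 2-fold difference; coloured points are members of the named gene lists. Brush border and Paneth cell genes such as Sis and Lyz1 lie far below the line, Car1 and Mptx1 far above it, and Lef1, Cd4 and Dcn above the upper dotted line.

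The 4 genes that mark the cells of this comparison pointed different ways. Cd2, an adhesion receptor of T cells, was at 5.67, 3.77, 4.70 and 2.41, 3.73-fold higher on the recolonized array than on the small intestinal one. Cd8b1, the beta chain of the CD8 co-receptor found on conventional CD8 T cells, was at 7.52, 5.71, 6.28 and 2.67. Gzmb, a serine protease of cytotoxic granules, was at 4.76, 9.46, 4.64 and 2.13, 26.1-fold lower. Ms4a1, the B cell surface protein CD20, was at 1.74, 6.65, 3.17 and 1.55, so its level on the recolonized array lay under that array's median. The first pair of genes was higher on both colon arrays than on the small intestinal array, and the second pair lower on both. The small intestinal sample was thus richer in Gzmb and also in transcripts of B cells, although both were enriched as T cells.

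Genes of the receptor complex and of the signalling steps next to it were mostly within 2-fold. Of 18 members past the floor, 4 were at least 2-fold higher on the recolonized array and 0 lower, with a median difference of 0.30, and 7 were higher after quantile normalization. The 4 were Cd2, the kinase Prkcq with a difference of 1.57, the adaptor Sit1 with 1.17 and Cd3d with 1.00, the last at the threshold itself. The adaptor Skap1 differed by 0.96. Cd3e differed by −0.07. In bulk samples such as these, fewer cells of a type and less RNA per cell cannot be told apart.

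Co-receptor and helper genes were higher as a group. Of 10 members past the floor, 5 were at least 2-fold higher on the recolonized array and 0 lower, with a median of 1.00. Cd4, the co-receptor of helper and regulatory T cells, was at 7.70, 5.91, 8.09 and 1.89. Both colon arrays were thus well above the small intestinal one, the unmanipulated colon array more so. Cd8b1, Cd27 (a costimulatory receptor), Cd40lg (the helper ligand for CD40 on B cells) and Cd5 (a negative regulator of receptor signals) had differences of 1.81, 1.42, 1.32 and 1.25. Cd8a ran against Cd8b1, at 7.04, 8.51, 6.48 and 2.33, a difference of −1.47. The alpha chain can pair with itself or with the beta chain, so on the recolonized array the chain particular to the heterodimer was higher and the shared chain lower. After quantile normalization the difference of Cd8a was −0.89.

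Genes of naive and recirculating T cells were higher more widely than any other T cell list examined. Of 14 members past the floor, 12 were at least 2-fold higher and 0 lower, with a median of 1.83. Lef1, a transcription factor of naive and memory T cells, was at 7.55, 3.85, 7.14 and 2.37, 12.9-fold higher. Ccr7, the receptor that guides T cells to lymph nodes, was at 6.07, 3.55, 5.88 and 2.30. Satb1, a chromatin organizer, was at 6.27, 3.78, 5.74 and 2.14. In these 3 genes both colon arrays lay at least 1.96 above the small intestinal array. Dapl1, Actn1 and Il7r, which encodes a receptor for a survival cytokine of resting T cells, had differences of 2.57, 2.36 and 1.59. The count of 12 members was the same in each of the other scalings (centring, lowess correction, quantile normalization), and the median lay between 1.83 and 2.31.

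Natural IEL genes ran the other way. Of 14 members past the floor, 8 were at least 2-fold lower on the recolonized array and 0 higher, with a median of −1.28, and 5 were lower after quantile normalization or the lowess correction. Itgae, the alpha chain of CD103, was at 5.47, 7.90, 4.82 and 2.33, 5.36-fold lower. Cd244a, an immune receptor of natural killer cells and IEL, was at 4.80, 6.80, 4.84 and 2.21. Lag3, an inhibitory receptor, was at 3.07, 5.07, 2.55 and 2.19, and Tyrobp, the signalling adaptor of activating receptors, at 3.42, 5.00, 3.58 and 2.25. In all 4 genes both colon arrays were below the small intestinal array. Cd7 and Cd160, often bright on IEL, had differences of −0.63 and 0.21. One of the 8 lower members, Tmigd1, is also an epithelial gene, at 6.14 on the array labelled lamina propria. Another of the 8, Ikzf2 with a difference of −1.23, reached 5.36 there, beside 5.44 in small intestinal IEL and 4.22 in recolonized IEL. The list's epithelial part was not tested further. Among 5 gamma delta T cell genes above the floor, Blk had a difference of −2.67, Maf −2.34, Rhoc −0.96, Sox13 −0.36 and Zbtb16 0.31. Blk is also a B cell gene, and the second probe set of Maf gave −0.98. Trgv5, a gamma chain segment counted below with the other receptor segments, was at 2.83 against 1.97, a difference of 0.86. Trdc and Tcf7 were not analysed here.

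Granule genes were split between members. Of 13 that passed the floor, 6 were at least 2-fold lower on the recolonized array and 1 higher, with a median of −0.65, which was −0.14 after quantile normalization. In each of the other scalings 4 were lower and 1 higher. Gzma, a granzyme of killer cells, was at 7.73, 10.38, 4.98 and 2.36, 6.25-fold lower on the recolonized array and lower still on the unmanipulated colon array. Gzmk, a granzyme of memory T cells, was at 2.60, 5.56, 2.56 and 2.36, close to the array medians on the colon side. Serpinb6b and the death ligand Fasl differed by −1.55 and −1.19. Perforin (Prf1), which opens the membrane of the target cell, was at 5.24, 4.66, 4.17 and 3.13, a difference of 0.59 with the opposite sign. Gzmf, at 2.77 against 1.76, was the member at least 2-fold higher as deposited and after centring. After quantile normalization that member was Prf1, with 1.22 beside 0.96 for Gzmf. After the lowess correction it was again Prf1, with 1.18 beside 0.82 for Gzmf. Granzymes A, B and K were therefore lower on the recolonized array while perforin was not.

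**Figure D2:**
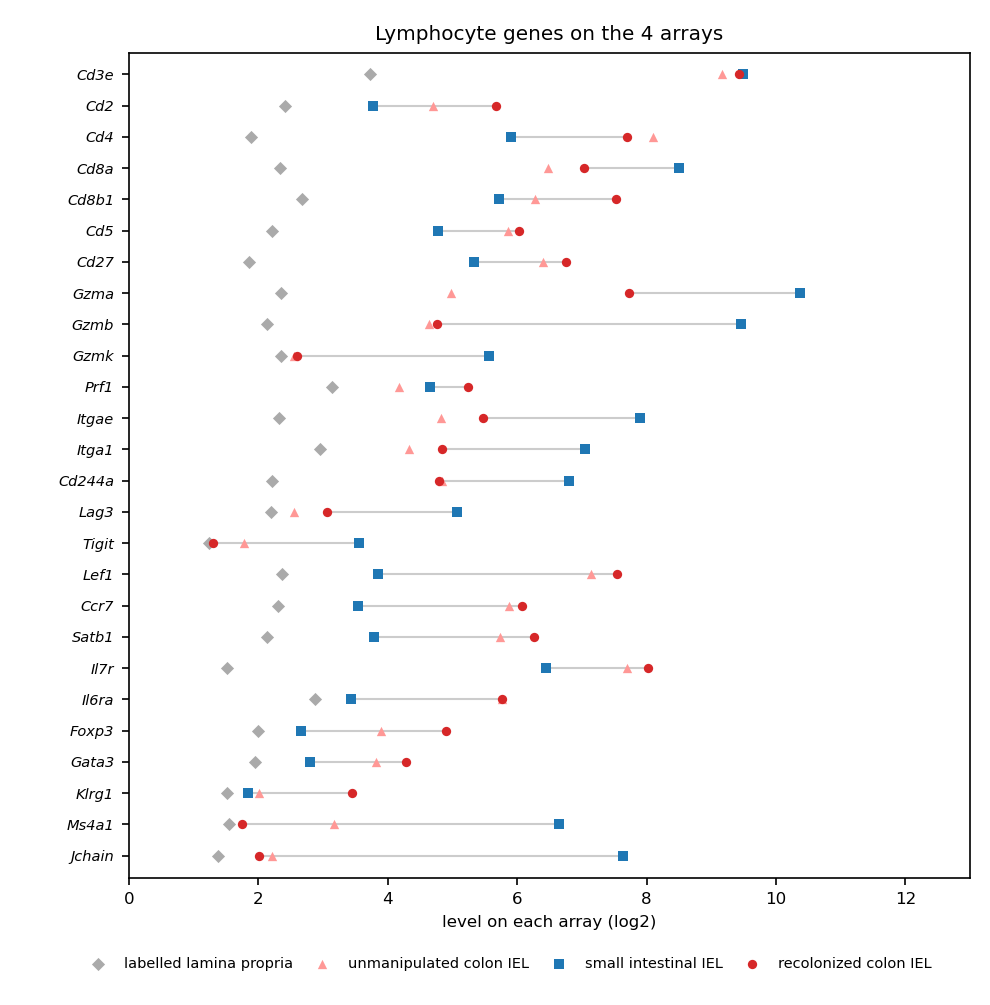
Log2 level of lymphocyte genes (x axis) on the recolonized colon IEL array (red circles), the small intestinal IEL array (blue squares), the unmanipulated colon IEL array (pink triangles) and the array labelled lamina propria (grey diamonds), 1 array each; lines join the arrays compared. Cd3e is at 9.43 and 9.49, whereas Gzmb at 4.76 and 9.46 and Lef1 at 7.55 and 3.85 lie far apart in opposite directions.

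Genes of tissue residency and adhesion were mostly within 2-fold. Of 18 that passed the floor, 6 were at least 2-fold lower on the recolonized array and 1 higher, beside 17.9% and 4.76% of all genes. Their median of −0.47 turned to 0.13 after quantile normalization and 0.03 after the lowess correction, and in both of these 3 were lower and 4 higher. Besides Itgae, the lower members were led by Itga1, the collagen-binding CD49a, at 4.84, 7.04, 4.33 and 2.96, and by the ATP-gated channel P2rx7 with −1.36, Cd101 with −1.26 and Bhlhe40, a transcription factor, with −1.16. Bhlhe40 was brightest on the epithelium-rich array, at 7.19. Itgb7, the partner chain of Itgae, was at 5.99 and 5.95, a difference of 0.03 beside the −2.42 of its alpha chain. Xcl1, a chemokine that attracts cross-presenting dendritic cells, was at 8.03, 6.73, 7.05 and 2.91, higher on the recolonized array. Among 12 receptors for gut homing and chemokines, 4 were at least 2-fold lower and 0 higher, beside the same 17.9% and 4.76% of all genes, with a median of −0.78. After quantile normalization 2 were lower and 2 higher, with a median of −0.17, and after centring 2 were lower and 1 higher. The 4 lower members were Cxcr6 with −1.84, Gpr18 with −1.36, Gpr55 with −1.19 and Ccr9, the small intestinal homing receptor, with −1.09. Ccr9 was at 2.16, 3.24, 1.81 and 1.83 and so was dim on every array. Ccr4 had a difference of 0.99, and Gpr15, a colon homing receptor, was below the floor at 2.21 and 1.76.

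Receptors of natural killer type and inhibitory receptors contained members of both directions. Of 14 natural killer type receptors that passed the floor, 2 were at least 2-fold higher and 3 lower, the latter near the 17.9% of all genes. After quantile normalization 1 was lower, and after centring 5 were higher. Klrg1, an inhibitory receptor of differentiated effector cells, was at 3.45, 1.84, 2.01 and 1.52, and Ncr1, the activating receptor NKp46, at 3.76, 2.60, 2.24 and 1.81. Both were higher on the recolonized array than on each of the other 3 arrays. The lower members were Cd244a, Slamf7 with −1.38 and Klrd1 (CD94) with −1.33. Of 13 inhibitory receptors that passed the floor, 6 were at least 2-fold lower and 1 higher, with a median of −0.69, and after quantile normalization or the lowess correction 4 were lower and 3 higher. Cd200r1 was at 2.26, 4.90, 3.10 and 1.52 and Tigit at 1.31, 3.56, 1.79 and 1.23, both under the median of the recolonized array. Btla differed by −1.40. Pdcd1, which encodes PD-1, was at 3.27, 1.95, 3.03 and 1.30, a difference of 1.32 and the exception in this list.

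Regulators and effector products were mixed. Foxp3, which specifies regulatory T cells, was at 4.90, 2.66, 3.90 and 2.0, 4.73-fold higher on the recolonized array. Of 9 regulatory T cell genes that passed the floor, 2 were at least 2-fold higher (Foxp3 and Tnfrsf18 with 1.04) and 2 lower (Tnfrsf9 with −1.59 and Ikzf2 with −1.23), with a median of 0.52, beside 4.76% and 17.9% of all genes. After quantile normalization or the lowess correction 2 were higher and 1 lower. Ikzf2, which encodes Helios, was also at 5.36 on the epithelium-rich array. Of 21 T cell transcription factors, 4 were at least 2-fold higher (9 after quantile normalization), namely Lef1, Foxp3, Gata3 (the factor of type 2 helper cells) with 1.49 and Bcl11b (a T cell commitment factor) with 1.30, and Ikzf3 was lower with −1.35. A second probe set of Gata3 gave 0.20 but was close to the array medians, at 2.48 against 2.28. Tbx21, the factor T-bet of type 1 responses, was at 4.59 and 4.80. Of 7 Th17 and type 3 genes that passed the floor, 1 was at least 2-fold lower, Maf, and 0 were higher. Among all genes 17.9% were lower and 4.76% higher. Ccr6 differed by −0.92, Batf by −0.17, Rora by 0.38, Il21r by 0.39 and Il1r1 by 0.43. Ahr, a sensor of dietary and microbial ligands that IEL need, was at 4.72 and 4.58.

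Among 10 effector cytokines and chemokines that passed the floor, 4 were at least 2-fold lower and Xcl1 was higher, with 2 higher after quantile normalization. Tnfsf10 (the death ligand TRAIL) was at 2.93, 5.64, 3.36 and 3.77, and Ccl3 at 2.32, 4.90, 2.12 and 1.73. The chemokines Ccl4 and Ccl5 had differences of −1.34 and −1.29, so all 3 of these chemokines were lower. Il6 did not reach the floor, with levels of 1.12 and 1.39. Of 16 cytokine receptors, Il18r1 with 1.61 and Il7r were at least 2-fold higher and Tgfbr1 with −1.11 was lower, and quantile normalization gave 5 higher members. Of all genes above the floor, 4.76% were higher and 17.9% lower as deposited. After quantile normalization 1078 of 12437 genes above the floor were higher and 1309 lower. Il10ra differed by −0.94 and Il2ra by 0.53.

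Antigen receptor segments were next. Of 6 T cell receptor segments that passed the floor, 0 were at least 2-fold apart in the probe set used, with differences from −0.30 to 0.86. Dimmer probe sets of the same segments spread more widely, from −1.67 to 2.60 for Trav9d-3 and up to 1.68 for Trav12-2. Immunoglobulin segments and constant genes were lower by 2-fold or more in 16 of 16 cases above the floor, beside 17.9% of all genes, with a median of −3.16. Several of them passed the floor through the small intestinal array alone, such as Igkv8-30 at 1.47 on the recolonized array against 4.98. The floor thus favoured segments bright on the small intestinal array, and the count is no separate evidence of direction. Those with the largest differences were Igkj1 with −4.57, another kappa segment with −4.23, Igkv4-70 with −4.15, Igkv4-59 with −3.80 and Iglv1 with −3.58. The other segments lay between −3.51 and −1.78, and 7 probe sets of Ighm gave differences from −5.66 to −0.17. Segments are short and alike, so probe sets may share signal.

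B cell genes were lower throughout on the recolonized array. Of 14 that passed the floor, 13 were at least 2-fold lower and 0 higher, with a median of −3.40. Cr2 (a complement receptor of mature B cells) had a difference of −4.40, Cd79a (a signalling chain of the B cell receptor) −4.18, Bank1 −3.91 and Cd22 −3.67. Cd79a was at 3.31, 7.49, 5.57 and 2.45, so that the unmanipulated colon array lay between the others. MHC class II genes followed, with 9 of 10 at least 2-fold lower, 0 higher and a median of −2.51. H2-Ab1, a chain of the class II molecule, was at 4.31, 9.30, 7.62 and 5.13, H2-DMb2 differed by −3.68, H2-Aa by −3.39, H2-Eb2 by −3.11 and H2-Ob by −2.76. Class II is carried by B cells, dendritic cells and, in the small intestine, enterocytes.

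Plasma cell genes were led by Jchain, the joining chain of IgA and IgM, at 2.02, 7.64, 2.21 and 1.38, 49.1-fold lower. Of 8 that passed the floor, 2 were at least 2-fold lower, beside 17.9% of all genes. Pou2af1 differed by −2.09, and the other 6 members above the floor stayed within 2-fold, from Irf4 with −0.86 through Mzb1 with −0.59, Xbp1 with −0.50, Prdm1 with −0.42 and Sdc1 with −0.18 to Derl3 with 0.34. Of 10 myeloid cell genes that passed the floor, 3 were at least 2-fold lower and 1 higher, beside 17.9% and 4.76% of all genes. In each of the other scalings 2 were lower. Itgax, the integrin CD11c of dendritic cells and small intestinal IEL, was at 2.50, 5.24, 2.10 and 1.52. C1qb had −1.62, Cd68 −1.0 and Lyz2 −0.91, whereas Cd209a was higher with 1.48, its second probe set giving −0.42. That second probe set was dim, at 1.92 against 2.34. The mucosal mast cell proteases Mcpt1 and Mcpt2 had differences of −2.33 and −1.79, while Cpa3, the mast cell carboxypeptidase, was higher with 1.58. Siglecf, Kit and Tpsb2 differed by −0.67, −0.28 and 0.32. Of the red cell genes, Slc25a37 had a difference of −1.38, and Bpgm, Fech, Slc4a1, Isg20 and Ube2o lay between −0.78 and 0.19. The T cell differences above stood beside these B cell, plasma cell and mast cell differences, whose part in them was not tested.

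Stromal genes were higher on the recolonized array. Of 18 that passed the floor, 10 were at least 2-fold higher and 0 lower, with a median of 1.15. Dcn, a proteoglycan of fibroblasts, was at 9.03, 6.23, 7.96 and 3.26, 6.96-fold higher. Col1a1, a chain of type I collagen, was at 6.31, 4.18, 7.59 and 3.60, highest on the unmanipulated colon array. Col6a1, Thy1 and Lum had differences of 2.06, 1.87 and 1.86. A second probe set of Col6a1 gave 0.44 but was dim, at 2.07 against 1.63. Thy1 is also a T cell surface protein. Endothelial genes did not follow, with 0 of 6 above the floor at least 2-fold apart. Their differences ran from Egfl7 with −0.14 through Pecam1 with 0.25, Lyve1 with 0.32, Cdh5 with 0.60 and Tek with 0.61 to Eng with 0.98. On the unmanipulated colon array 8 of 18 stromal genes were at least 2-fold higher than on the small intestinal array and 0 lower. Their median difference was 0.47, and Lum was at 2.17 against 2.30. By the list medians both colon arrays thus carried more stromal transcript than the small intestinal array, though not in every member. The part of stromal transcript in the T cell differences was not tested.

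**Figure D3:**
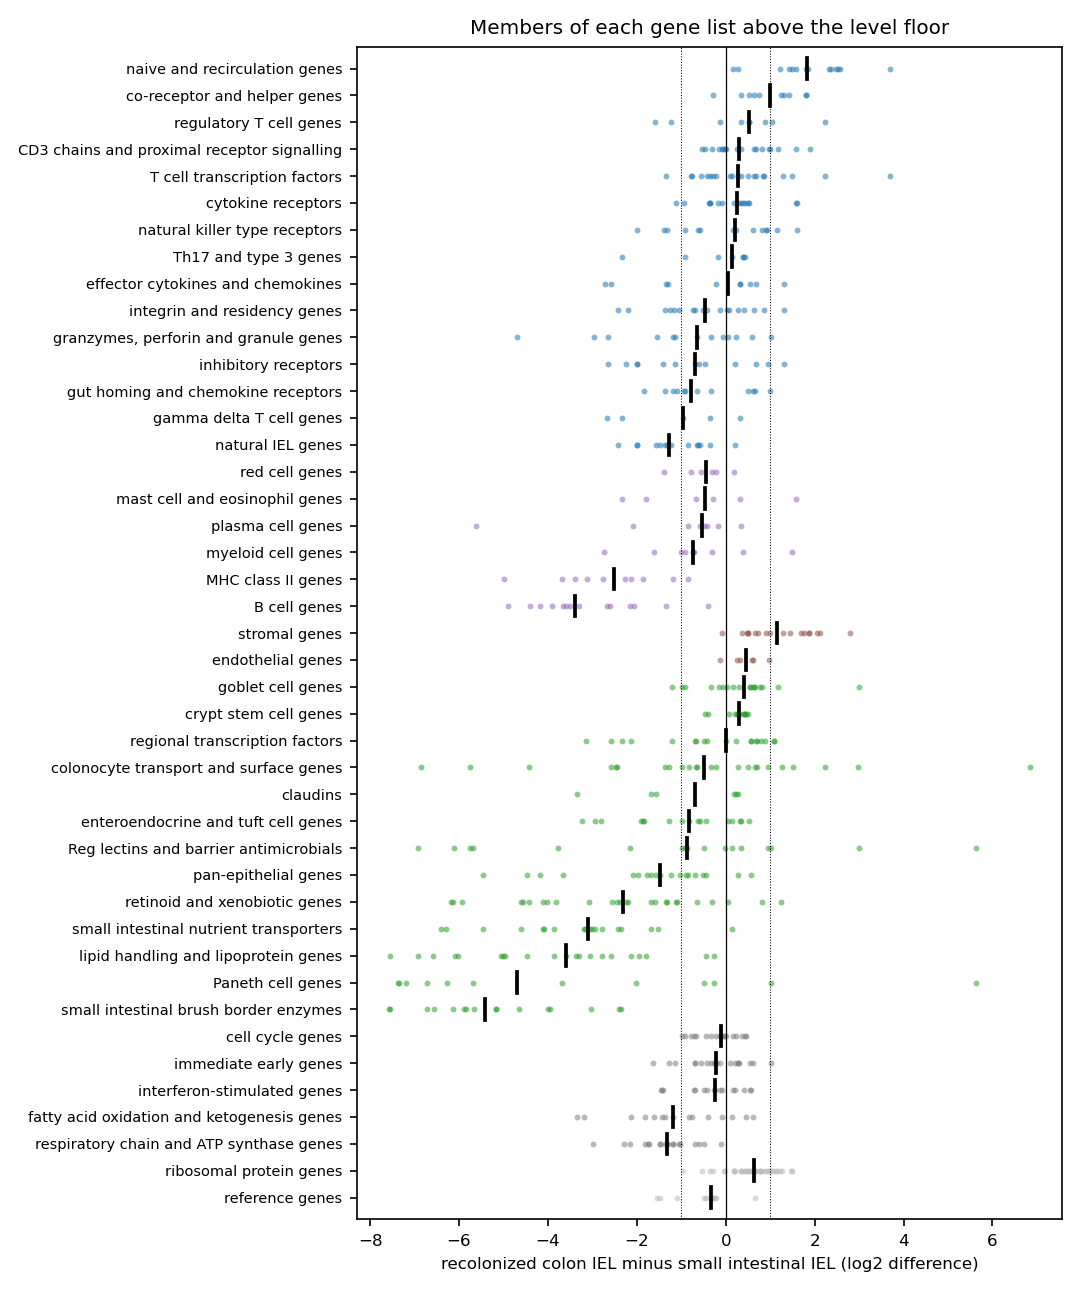
Log2 difference between recolonized colon IEL and small intestinal IEL (x axis) for each member above the level floor of the lists with at least 5 such members (points), with the list median (black bars); dotted lines mark 2-fold. Medians run from −5.42 for brush border enzymes and −3.40 for B cell genes to 1.15 for stromal genes and 1.83 for naive and recirculation genes.

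Epithelial transcripts differed both in amount and in kind. Of 19 pan-epithelial genes, 12 were at least 2-fold lower on the recolonized array and 0 higher, with a median of −1.48. After quantile normalization 9 were lower and 1 higher, with a median of −0.98. Epcam was at 5.91, 7.88, 4.28 and 9.20, so epithelial transcript remained on all 3 IEL arrays in spite of the selection against EpCAM. Hnf4g, a nuclear receptor of enterocytes, was at 3.40, 8.85, 2.50 and 5.95, and Vil1, the microvillus protein villin, at 4.95, 9.43, 4.25 and 8.51. Cdh17, Krt20 and Klf5 had differences of −4.17, −3.67 and −2.09. The small intestinal genes named next stood beside this lower epithelial level.

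All 16 measured brush border enzymes were at least 2-fold lower on the recolonized array, with a median of −5.42. Sis, which encodes sucrase-isomaltase, was at 1.95, 9.53, 1.90 and 4.82. Alpi, the intestinal alkaline phosphatase, was at 1.94, 9.50, 2.21 and 6.37, and the related phosphatase Akp3 at 1.81, 8.95, 2.49 and 1.63. All 3 were under the median level of the recolonized array, so the sizes of their differences are limited by its dim end. Enpp3, Mgam (maltase-glucoamylase) and Mme (neprilysin) had differences of −6.73, −6.56 and −6.13. Anpep, the aminopeptidase N, was at 4.66, 10.50, 2.63 and 7.97, above background on the recolonized array.

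Lipid handling genes were lower in 19 of 21 members, with 0 higher and a median of −3.59. Fabp1, a fatty acid binding protein, was at 1.43, 8.99, 1.81 and 1.54. Apoa4 and Apob, proteins of chylomicrons, had differences of −6.93 and −6.60, Mttp, which loads lipid onto Apob, had −6.08, and Fabp6, the bile acid carrier of the ileum, had −6.03. Nutrient transporters were lower in 17 of 18 members, with 0 higher and a median of −3.11. They were led by Slc2a2, a hexose transporter, with −6.41, Slc5a1, the sodium and glucose transporter, with −6.30, the peptide transporter Slc15a1 with −5.47, Slc3a1 with −4.61 and Slc13a1 with −4.11. Retinoid and xenobiotic genes were lower in 21 of 26 members, led by the retinol carrier Rbp2 with −6.18, Cyp3a13 with −6.14, Gstm3 with −5.94, Cyp2b10 with −4.61 and Sult1b1 with −4.56. The exception was Aldh1a2, a retinoic acid enzyme, at 3.10, 1.85, 2.81 and 1.56.

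The promoters of 4 of the genes with the largest differences are shown to give the sequence before the start of each, 3 of them lower on the recolonized array and Mptx1 higher. Each is the 250 bases before the RefSeq start site in GRCm38.p6, read 5′ to 3′ along the gene: Sis chr3:72967864-72968113, minus strand, Alpi chr1:87101607-87101856, minus strand, Fabp1 chr6:71199629-71199878, plus strand, and Mptx1 chr1:174330268-174330517, plus strand. Capitals mark matches on either strand to TTTATG, the core bound by CDX factors, GTTAAT, a half-site of HNF1 factors, or CAAAGTCCA, a site of HNF4 type.
Sis: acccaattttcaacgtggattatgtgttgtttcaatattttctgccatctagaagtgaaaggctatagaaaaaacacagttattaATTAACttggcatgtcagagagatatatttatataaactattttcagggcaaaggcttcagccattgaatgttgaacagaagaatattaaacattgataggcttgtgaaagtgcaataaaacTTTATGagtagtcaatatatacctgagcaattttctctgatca
Alpi: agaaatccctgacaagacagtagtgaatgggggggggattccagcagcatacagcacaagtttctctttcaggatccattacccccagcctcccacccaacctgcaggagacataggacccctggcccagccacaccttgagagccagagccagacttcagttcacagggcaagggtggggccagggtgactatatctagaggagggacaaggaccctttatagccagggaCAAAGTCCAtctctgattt
Fabp1: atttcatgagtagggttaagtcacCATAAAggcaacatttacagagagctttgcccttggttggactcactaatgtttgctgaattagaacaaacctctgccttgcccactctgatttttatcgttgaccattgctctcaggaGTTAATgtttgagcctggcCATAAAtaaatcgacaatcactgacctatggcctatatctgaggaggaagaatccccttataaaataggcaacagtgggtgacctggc
Mptx1: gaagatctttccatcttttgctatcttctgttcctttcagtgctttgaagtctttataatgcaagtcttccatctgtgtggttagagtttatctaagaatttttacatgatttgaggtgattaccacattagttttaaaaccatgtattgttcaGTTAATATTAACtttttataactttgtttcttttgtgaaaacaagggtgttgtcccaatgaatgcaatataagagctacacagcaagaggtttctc
Sis held TTTATG from −43 to −38 and, on the other strand, GTTAAT from −165 to −160, counted from the start site. Alpi held CAAAGTCCA from −19 to −11. Fabp1 held TTTATG on the other strand at 2 places and GTTAAT once, and Mptx1 held GTTAAT on both strands side by side. Of all 32851 promoter windows of this length, 10.8% held TTTATG, 6.43% GTTAAT and 0.384% CAAAGTCCA. The 16 brush border genes with a window had 19 windows, of which 3 held the first, 2 the second and 2 the third. The matches are letters in a window and not bound sites.

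Genes listed for Paneth cells were lower with marked exceptions. These were Mptx1, named above among genes of colon epithelium, and Ang4, which is also a goblet cell gene. Of 12 that passed the floor, 8 were at least 2-fold lower on the recolonized array and 2 higher, with a median of −4.69. Lyz1, the Paneth cell lysozyme, was at 2.51, 9.86, 4.83 and 2.97. The defensins Defa21, Defa24, Defa22 and Defa39 had differences of −7.37, −7.20, −6.27 and −7.25, and the pentraxin Mptx2 had −6.71. Defensin genes are near copies of each other, so their values may share signal and are uncertain one by one. Mptx1, a pentraxin, was at 7.05, 1.41, 4.03 and 5.89, 49.7-fold higher and opposite to its relative Mptx2. Ang4, an antimicrobial ribonuclease of Paneth and goblet cells, was at 9.25, 8.23, 6.83 and 6.42, a difference of 1.03.

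Secreted lectins and other antimicrobials split in the same manner, with 6 of 17 lower and 3 higher by 2-fold or more. Reg1 was at 2.63, 9.55, 1.5 and 1.54, Reg3g at 2.72, 8.83, 2.70 and 7.74, and Reg3b at 4.49, 10.24, 4.76 and 9.35. The Reg3 lectins, which bind bacterial surfaces, were thus lower on both colon arrays than on the small intestinal array. Itln1 had a difference of −5.68. Retnlb, a goblet cell protein induced by bacteria, was at 5.01, 2.0, 2.41 and 7.58, 8.03-fold higher on the recolonized array. On the unmanipulated colon array Retnlb lay near that array's median, and the 3 higher members were Retnlb, Mptx1 and Ang4.

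**Figure D4:**
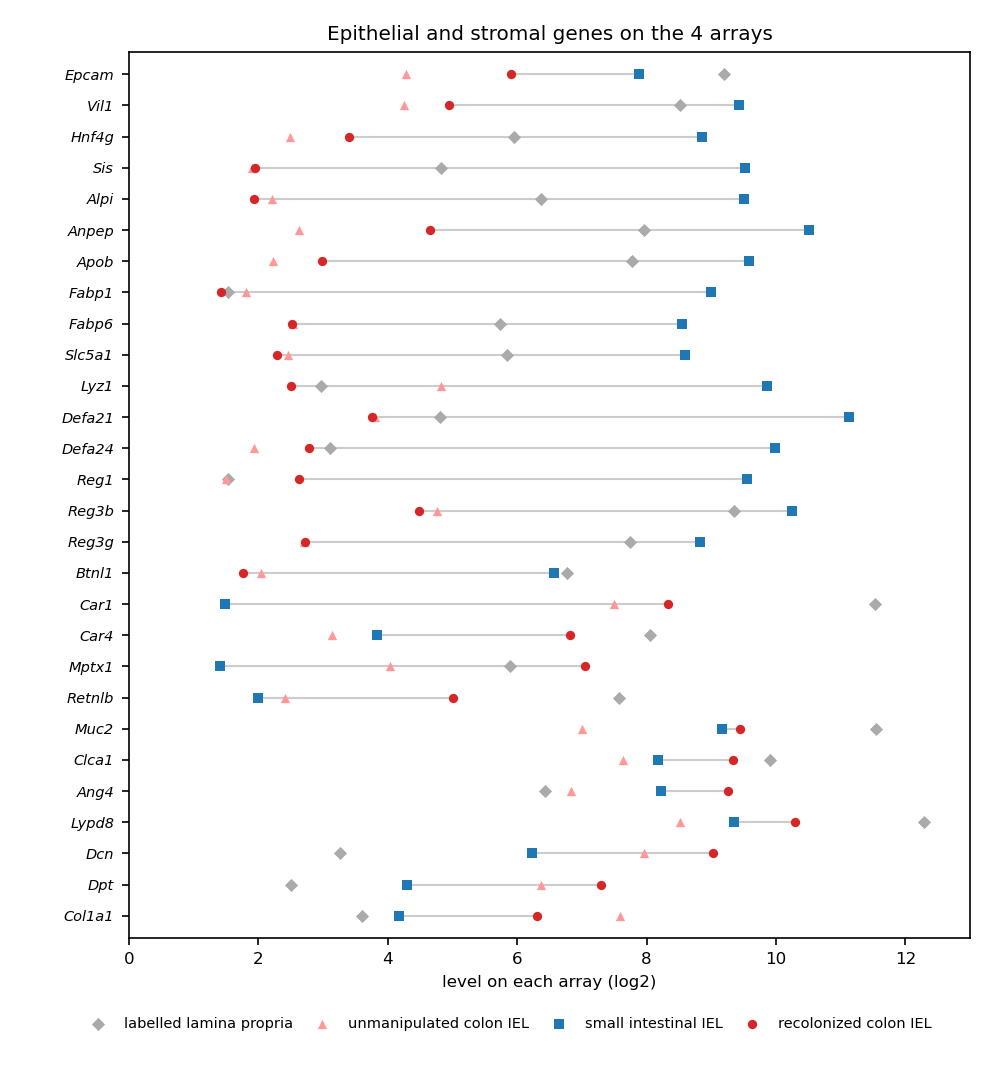
Log2 level of epithelial and stromal genes (x axis) on the same 4 arrays, with symbols as in the plot of lymphocyte genes; lines join the arrays compared. Sis is at 1.95 on the recolonized array and 9.53 on the small intestinal array, Car1 at 8.33 and 1.49, and Muc2 at 9.45 and 9.16.

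Colonocyte genes pointed both ways. Of 24 that passed the floor, 5 were at least 2-fold higher on the recolonized array and 8 lower, beside 4.76% and 17.9% of all genes. Their median of −0.49 turned to 0.21 after quantile normalization and 0.09 after the lowess correction, each with 9 higher and 7 lower. Car1, a carbonic anhydrase made by colonocytes and also by red cells, was at 8.33, 1.49, 7.49 and 11.53. Car4, a membrane carbonic anhydrase, was at 6.82, 3.83, 3.14 and 8.06, and the amino acid transporter Slc6a14 at 4.22, 1.99, 2.22 and 9.41. Car1 was bright on both colon arrays, while Car4 and Slc6a14 stood out on the recolonized array alone among the 3 IEL arrays. The water channel Aqp8 and the proton pump Atp12a had differences of 1.52 and 1.27. The lower members were led by Clca4b with −6.85, Guca2b (uroguanylin) with −5.76 and Ugt2b34 with −4.42. Slc26a3, the chloride and bicarbonate exchanger of colon surface cells, was at 5.57, 5.78, 2.82 and 10.26.

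Goblet cell genes were within 2-fold for 15 of 18 members, with a median of 0.41, although the pan-epithelial genes were lower. As deposited, 2 were higher and 1 lower, against 7 and 0 after quantile normalization (median 0.82) and 6 and 0 after the lowess correction (median 0.73). Muc2, the main gel-forming mucin, was at 9.45, 9.16, 7.00 and 11.55. Besides Retnlb, Clca1, a mucus protein, was higher at 9.34 against 8.17, and Fcgbp was lower with −1.22. Reg4 and Zg16, lectins of goblet and related cells, had differences of −0.98 and −0.93. Among 17 enteroendocrine and tuft cell genes that passed the floor, 7 were at least 2-fold lower and 0 higher, beside 17.9% and 4.76% of all genes. The hormones Nts, Gip, Sst, Cck and the granin Chgb had differences of −3.22, −2.95, −2.80, −1.92 and −1.86.

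Genes that mark position along the gut and cell contacts were examined last among the epithelial groups. Of 19 regional transcription factors that passed the floor, 5 were at least 2-fold lower and 2 higher, beside 17.9% and 4.76% of all genes. Gata6 and Gata5, factors of small intestinal epithelium, had differences of −3.14 and −2.13, Creb3l3 −2.58, Maf −2.34 and Osr2 −1.21. Hoxd13 and Onecut3 were higher with 1.08 each. Gata4, a factor of the proximal small intestine, was at 3.61 and 3.59, and Hoxb13, a hindgut factor, at 2.76 and 2.19. Btnl1, which supports gamma delta IEL of the small intestine, was at 1.77, 6.57, 2.04 and 6.77, and Btnl2 at 2.89, 5.60, 3.12 and 4.22. Those were the only 2 butyrophilin-like genes of 6 measured that passed the floor, and Btnl4 and Btnl6 were not analysed here. Of 6 claudins above the floor, Cldn15, which forms sodium pores, had −3.35, Cldn7 −1.68 and Cldn4 −1.58, while Cldn23, Cldn12 and Cldn3 lay between 0.19 and 0.27. Of 14 crypt stem cell genes that passed the floor, 0 were at least 2-fold apart, with Znrf3 at 0.51, Slc12a2 at −0.46, Ephb3 at 0.45, Cdca7 at 0.44 and Ascl2 at 0.43.

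Genes of general cell functions differed unevenly. Of 19 respiratory chain and ATP synthase genes, 15 were at least 2-fold lower on the recolonized array and 0 higher, with a median of −1.32. The lower count fell to 11 after centring, 7 after the lowess correction and 6 after quantile normalization, where the median was −0.81. Cox5b, a subunit of cytochrome oxidase, was at 4.06, 7.04, 4.95 and 7.97. Its second probe set differed by 0.12 but was dim, at 1.99 against 1.87. Cox5a differed by −2.29, Ndufs1 by −2.15, Uqcrc1 by −1.82 and Atp5a1 by −1.76. Of 15 fatty acid oxidation and ketogenesis genes, 8 were lower (5 after quantile normalization, 6 after the lowess correction) and 0 higher, led by Acot12 with −3.34, Cpt2 with −3.18, Acadl with −2.12, Acadm with −1.83 and Acadvl with −1.61. On the recolonized, small intestinal, unmanipulated colon and lamina propria arrays the median levels were 4.93, 6.25, 4.33 and 6.90 for the respiratory genes and 3.87, 5.09, 3.42 and 6.50 for the fatty acid oxidation genes. Both medians were thus highest on the epithelium-rich array, and the part of epithelium in these differences was not tested.

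Immediate early genes, which respond to stress and cell isolation, were lower by 2-fold or more in 3 of 20 cases and higher in 1, near the 17.9% and 4.76% of all genes. After quantile normalization 0 were lower and 2 higher. Zfp36, Fos and Jun had differences of −1.64, −1.27 and −1.13, Klf4 −0.69, Nr4a1 −0.69 and Dusp1 1.02. Of 16 interferon-stimulated genes above the floor, 3 were lower, near the 17.9% of all genes, and 0 higher. They were Oasl1, Oasl2 and Ifit1 with −1.46, −1.44 and −1.40, followed by Isg15 with −0.72 and Usp18 with −0.69. Of 19 cell cycle genes that passed the floor, 0 were at least 2-fold apart, with Kif11 at −0.98 and Mki67, a marker of dividing cells, at −0.93, then Top2a at −0.78, Pcna at −0.72 and Mcm6 at −0.68. The median differences of these 3 lists changed sign under at least 1 scaling, quantile normalization giving 0.30, 0.01 and 0.05. Ribosomal protein genes had a median of 0.64 with an SD of 0.535 over 39 genes, and reference genes a median of −0.33 with an SD of 0.605 over 12 genes. The difference between both probe sets of a gene had an SD of 1.01 over 747 genes, so a single gene near the 2-fold threshold lies within the spread between probe sets. The floor applied to the gene and not to each probe set, so dim probe sets are part of this spread.

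**Figure D5:**
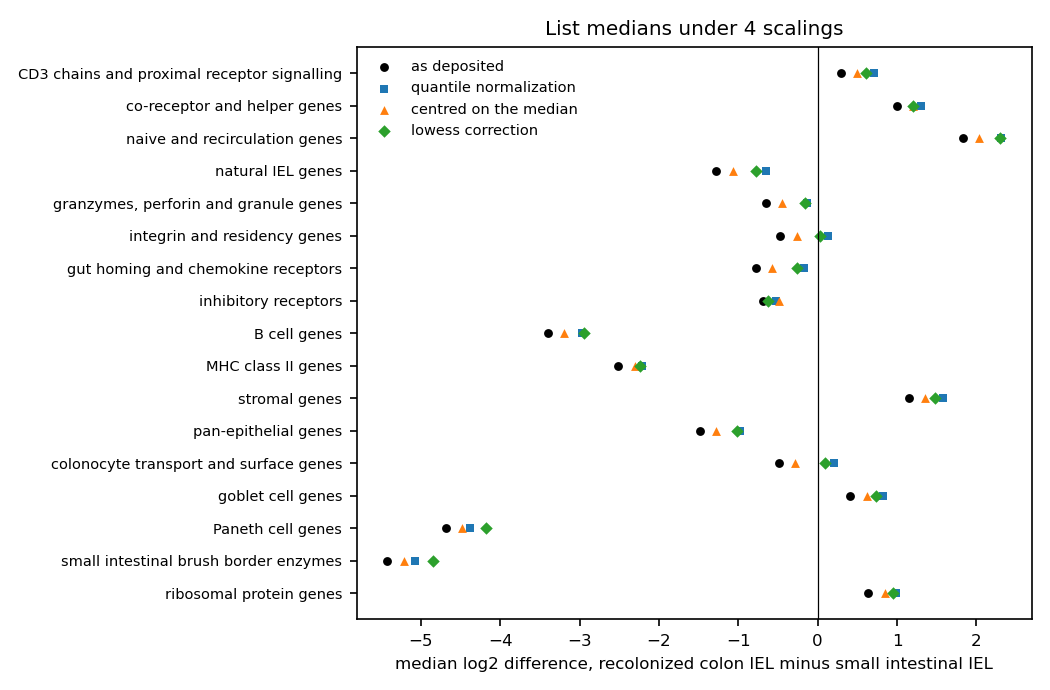
Median log2 difference of gene lists (x axis) with the values as deposited (black circles), after quantile normalization (blue squares), centred on the median (orange triangles) and after a lowess correction (green diamonds). The naive and recirculation genes lie between 1.83 and 2.31 and the natural IEL genes between −1.28 and −0.65, whereas the integrin and residency genes cross 0, from −0.47 to 0.13, as do the colonocyte genes, from −0.49 to 0.21.

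With the unmanipulated colon array in place of the recolonized one, against the same small intestinal array, the naive, natural IEL, granule, B cell and brush border lists kept the sign of their medians, and several other lists did not. The pair of comparisons shares that array, so their likeness is no separate evidence. The medians for recolonized and unmanipulated colon were 1.83 and 1.19 for naive and recirculation genes, −1.28 and −1.56 for natural IEL genes, and −0.65 and −1.54 for granule genes. They were −3.40 and −2.13 for B cell genes and −5.42 and −5.82 for brush border enzymes. Goblet cell genes differed in sign, with 0.41 and −0.79, as did CD3 and proximal signalling genes with 0.30 and −0.19, T cell transcription factors with 0.27 and −0.33, and natural killer type receptors with 0.20 and −0.80. Regulatory T cell genes had 0.52 and −0.08, and effector cytokines and chemokines 0.05 and −0.81. Foxp3 was 2.24 above the small intestinal array on the recolonized array and 1.25 above it on the unmanipulated colon array, and Gzma was 2.64 and 5.39 below it.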

How the data were processed

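Total RNA (Trizol) was labelled with biotin and hybridised to 1 Affymetrix array per group, per the labels. The authors deposited log2 levels, and the submitters' processing notes name Affymetrix Expression Console. What summarization, normalization and genome build lay behind them is not given in the sources used here, so no probe set is given coordinates. Of 41345 probe sets, 23521 listed 1 gene symbol, 1814 several and 16010 none, and 23328 matched RefSeq genes of GRCm38.p6 with 0 symbols updated. Where a gene had several single-symbol probe sets (1082 of 22180 genes), the one brightest on average over the arrays was used. Depth cannot be stated for arrays, and their number limits the precision.

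Differences were taken between single arrays with Python 3.11.15, pandas 2.3.3 and numpy 2.4.6, and lowess fits with statsmodels 0.14.6 (span 0.3). The floor was the 50th percentile and the threshold 2-fold. The steps were tested on simulated data. Members and 44 lists (783 genes, 692 measured, 588 past the floor) were chosen with earlier results of these data known. Named genes were the 10 with the largest differences each way, without receptor segments, predicted genes, small RNAs or chemoreceptors; genes named in any case; all members of described lists with up to 8 past the floor; and otherwise the 5 with the largest differences plus those at least 2-fold against the median's sign. Receptor segments were counted and the 5 largest named. Chosen after their values were seen were Tmigd1, Bhlhe40, Hoxd13, Onecut3 and the sex-linked genes. Alternatives were other floors, thresholds and scalings, averaged probe sets and the unmanipulated colon array. Promoters are RefSeq windows of 250 bases.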

Additional observations from a re-analysis of the deposited data

How the results depend on the processing

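With 1 array per group, direction and size carry no test. Values were sorted by size alone, as moved where they differed by over 1.5 times and as turned where a median changed sign. The counts of higher and lower genes were 1854 and 3874 at 1.5-fold, 111 and 1019 at 3-fold, and 1078 and 1309 after quantile normalization. Centring gave 1041 higher genes and the lowess correction 1435 lower genes. Among genes under the median of the array labelled lamina propria, an alternative chosen after seeing the data, 209 were higher and 185 lower. The Paneth cell median was −2.86 with the floor at the 25th percentile and also with no floor, and −5.68 at the 75th; these floors add or remove dim genes. Quantile normalization moved natural IEL genes to −0.65. With unmanipulated colon as the colon side the medians were −1.54 for granule, 1.19 for naive, −2.13 for B cell, −1.66 for MHC class II, 0.47 for stromal, −0.79 for goblet and −3.96 for Paneth cell genes. Signs turned with that array for CD3 and proximal signalling (−0.19), natural killer type receptor (−0.80), regulatory T cell (−0.083), Th17 (−0.26), effector cytokine (−0.81), transcription factor (−0.33), cytokine receptor (−0.11), red cell (4.47) and regional factor (−0.35) genes, besides goblet cell genes. With the floor at the 25th percentile and with none they turned for butyrophilin-like (0.21, 0.32), claudin (0.18, 0.18) and mast cell (0.19, 0.17) genes, and with none for myeloid genes (0.0025). At the 75th they turned for natural killer type receptors (−1.13), regulatory T cell genes (−0.093), effector cytokines (−0.76) and regional factors (−0.69). Quantile normalization turned integrin and residency (0.13), colonocyte (0.21), interferon-stimulated (0.0088), immediate early (0.30) and cell cycle (0.053) genes, centring cell cycle genes (0.093), and the lowess correction integrin and residency (0.0315), colonocyte (0.0895) and immediate early (0.22) genes. Counts up to 3 in the Th17, endothelial, claudin, red cell, retinoid, regional, myeloid, interferon-stimulated and Reg lectin lists moved by 1 under a scaling. The cause of the other changes was not tested. Among the counts and the lists central to the report, 104 values under an alternative stayed, 20 moved and 2 turned; among the other lists 207 stayed, 13 moved and 28 turned. Of 279 list genes at least 2-fold apart, 0 changed sign under quantile normalization, centring or the lowess correction, and 50 (2 higher, 48 lower) came under 2-fold in at least 1 of them, Cd8a, Klrd1 and Fasl included. The log2 values needed no pseudocount, so that alternative was not run. No paired analysis was possible because each group is 1 array. Differences of genes under an array's median are limited by its dim end.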

Other observations

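A subset chosen after the values were seen leaves out genes that are bright on the epithelium-rich array. Of the 589 genes at least 2-fold higher on the recolonized array, 35.5% lay under the median of that array, the one labelled lamina propria, against 8.34% of the 2219 lower genes and 16.1% of all genes above the floor. Of the lower genes, 75.1% lay at or above its 75th percentile, against 21.7% of the higher genes and 44.2% of all. Among the 1988 genes under its median, 209 were higher and 185 lower, with a median difference of 0.42.

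The higher genes of this subset with the largest differences were mostly genes of connective tissue and of T cells. Serping1, a complement inhibitor, was at 5.42, 2.34, 3.43 and 1.79 in the order used above, a difference of 3.08. The matrix genes Efemp1, Ogn, Bgn, Postn and Fn1 had differences of 2.81, 2.68, 2.65, 2.55 and 2.54, and the second probe set of Bgn gave 1.06. Fn1 was at 5.32 and 5.43 on the recolonized and unmanipulated colon arrays, while Ogn was at 5.43 and 3.08, so the matrix genes did not keep 1 ratio between the colon arrays. The lymphocyte genes Dapl1, Ms4a4b, Satb1 and Foxp3 had differences of 2.57, 2.55, 2.48 and 2.24. Ppbp, a chemokine of platelets, was at 5.13, 2.67, 2.94 and 1.90.

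The lower genes of the same subset were genes of small intestinal epithelium that the array labelled lamina propria lacked, together with Jchain, Ms4a1 and Gzmb. Besides Fabp1, Akp3, Reg1 and Enpp3 they included Adh6a with −6.02, Abcc2, an export pump for conjugates, with −5.65, Sult6b2 with −5.27 and Gimd1 with −4.57. Those last 4 were under the median level on both colon arrays.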
